A study of Mus musculus with 172 samples.

Results

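Adenosine handling was followed in 8 genes, namely 3 adenosine receptors (Adora1, Adora2a and Adora2b), 3 enzymes that form or remove adenosine (Nt5e, Adk and Ada) and 2 transporters that let adenosine cross the cell membrane (Slc29a1 and Slc29a2). The genes were chosen by name, as known parts of adenosine signalling and metabolism, by a rule that uses no measured value. Earlier results of these data were, however, known when the genes were chosen. All 8 were listed in cortex, among 14896 genes, and 7 were listed in liver, among 14107 genes, where Adora2b was not listed. Over both tissues 16308 genes were listed.

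The mice were males of 11 to 14 weeks from recombinant inbred lines, called BXD, that carry mixtures of C57BL/6 and DBA/2 genomes, and from the parental strains C57BL/6J (B6) and DBA/2J (D2). The series held 172 libraries, from 43 pools in each tissue and condition. The comparisons used 39 of these pools, of which 33 were BXD/RwwJ lines, 4 came from the parents (DBA/2J and C57BL/6J mice, each pooled at the start and at the end of the breeding phase) and 2 from reciprocal F1 mice (C57/BL/J x DBA/2J F1 and DBA/2J x C57/BL/J F1). Sleep-deprived (SD) mice were kept awake for 6 h from light onset, whereas control (Ctr) mice of the same genotype were left undisturbed, and cerebral cortex and liver of both were taken at ZT6, i.e., 6 h after light onset. Each library held the RNA of a pool of mice of 1 genotype and condition, 3 mice for most pools and fewer for BXD79, BXD85 and BXD101, so differences between single mice were not seen. The other 4 pools, of the BXD/TyJ lines 05, 29, 29t and 32, belong to an older BXD panel and entered only an alternative with all pools and the closing values. In the text, a pool is named by its line, and a change is the SD value minus the Ctr value of the same line, tissue by tissue.

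Adenosine is formed from ATP inside cells and, after release of nucleotides, outside them, and its level in the brain is known to rise during wakefulness. It acts on G protein-coupled receptors, of which Adora1 inhibits adenylyl cyclase and Adora2a and Adora2b stimulate it. CD73 (Nt5e) is the surface enzyme that makes adenosine from AMP. Adenosine is cleared by uptake through the equilibrative nucleoside transporters ENT1 (Slc29a1) and ENT2 (Slc29a2), by phosphorylation to AMP by adenosine kinase (Adk) and by deamination to inosine by adenosine deaminase (Ada). In brain the receptor Adora1 is widespread, and Adora2a is concentrated in the striatum, in neurons of the indirect pathway.

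The genes lie on different chromosomes. In the mm9 assembly, on which the values are based, the annotation (GENCODE M1) placed Adora1 at chr1:136095800-136132008, Adora2a at chr10:74779688-74797533, Adora2b at chr11:62062486-62079955, Adk at chr14:21871855-22267769, Nt5e at chr9:88222447-88266927, Slc29a1 at chr17:45722149-45736555, Slc29a2 at chr19:5024006-5031971 and Ada at chr2:163552320-163575975. Counts were taken over the exons of each gene.

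Promoter sequences, 250 bases before to 50 bases after a transcription start, were taken from RefSeq on GRCm38.p6, a later assembly with other coordinates than mm9. Of the 8 genes, 7 were matched, with 16 starts in all, and Adora2a had no entry. The sequences printed here are those of a start of Adora1 and of Slc29a1, the genes with opposite changes in cortex and liver, and that of Nt5e, the gene with the widest line differences in liver. Capitals mark GC boxes (GGGCGG on either strand) and an E-box (CACGTG), the letters bound by the clock factors CLOCK and BMAL1. Adora1, chr1:134235408-134235707, minus strand, with 3 GC boxes:
Adora1: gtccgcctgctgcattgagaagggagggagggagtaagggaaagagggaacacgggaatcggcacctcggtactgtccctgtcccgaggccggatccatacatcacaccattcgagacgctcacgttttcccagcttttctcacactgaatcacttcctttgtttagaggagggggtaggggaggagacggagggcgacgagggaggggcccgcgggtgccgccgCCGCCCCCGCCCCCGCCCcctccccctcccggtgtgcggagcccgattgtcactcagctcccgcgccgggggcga
Slc29a1, chr17:45595197-45595496, minus strand, with an E-box 75 bases before the start and a GC box 18 bases before it:
Slc29a1: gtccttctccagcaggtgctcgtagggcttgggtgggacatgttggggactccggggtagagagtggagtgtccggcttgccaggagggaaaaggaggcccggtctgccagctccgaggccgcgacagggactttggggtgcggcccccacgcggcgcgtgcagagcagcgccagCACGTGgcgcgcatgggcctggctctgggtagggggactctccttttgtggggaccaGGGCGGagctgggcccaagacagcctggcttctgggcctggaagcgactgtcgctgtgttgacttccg
Nt5e, chr9:88327359-88327658, plus strand, with 4 GC boxes:
Nt5e: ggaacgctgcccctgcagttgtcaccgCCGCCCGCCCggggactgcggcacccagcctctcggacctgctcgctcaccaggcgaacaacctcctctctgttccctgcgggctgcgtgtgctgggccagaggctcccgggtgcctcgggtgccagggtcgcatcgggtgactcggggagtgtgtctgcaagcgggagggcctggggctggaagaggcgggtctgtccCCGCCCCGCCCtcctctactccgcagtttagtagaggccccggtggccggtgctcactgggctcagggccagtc

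The E-box was found in 1 of the 16 member promoters, this start of Slc29a1, and in 7.15% of the 32851 promoters of the table. A GC box was found in 12 of the 16, against 35.7% of all promoters. The 16 starts are not independent, because Slc29a1 had more of them than any other member, some in overlapping windows. Adora1 and Slc29a1 also had starts without any match, which are not printed. A full cAMP response element (TGACGTCA), a D-box (TTATGCAA), a TATA box (TATAAA) and a palindromic glucocorticoid element were found in none of the 16, against 1.79%, 0.743%, 13.6% and 0.475% of all promoters. The search used both strands, and matches of different motifs did not exclude each other. These matches are letters in a window and say nothing of binding.

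Cortex libraries held 18995492 to 28998853 reads in genes, and liver libraries 4681101 to 8269401, so liver values of low genes are the less precise ones. The tissue labels were checked with Slc17a7, a marker of cortical excitatory neurons (10.5 log2 CPM in Ctr cortex), and Alb, a marker of hepatocytes (9.08 log2 CPM in Ctr liver). Some libraries stood apart from their group in the spread of all genes around the group median. The widest were the Ctr cortex libraries of BXD90 and BXD56 and the liver libraries of BXD70 (SD), DB-F1 (Ctr) and BXD50 (both conditions). The largest spread, in BXD70, was 3.92 times the median of its group. Leaving these pools out is given below where it changed a call. CPM is the read count scaled to a common library size, and a step of 1 on the log2 scale is a doubling.

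Per length, the most abundant member in Ctr cortex was Adora1, at 56.7 ± 3.74 CPM per kilobase of exon (mean and standard deviation, n = 39), followed by Adk at 28.0 ± 1.59. The transporters Slc29a1 and Slc29a2 lay at 7.13 ± 0.706 and 6.15 ± 0.428 CPM per kilobase, with overlapping ranges over the pools. Adora2a (2.05 ± 1.13), Adora2b (1.81 ± 0.226) and Nt5e (1.24 ± 0.185 CPM per kilobase) formed a lower group whose ranges overlapped, and Ada was lowest, at 0.218 ± 0.0805. Liver had another order. Adk led at 179 ± 17.1 CPM per kilobase, followed by Slc29a1 at 85.0 ± 6.49, Adora1 at 22.2 ± 3.74 and Nt5e at 16.5 ± 9.21, the last pair with overlapping ranges. Ada (4.85 ± 2.15), Adora2a (1.96 ± 0.376) and Slc29a2 (1.55 ± 0.385 CPM per kilobase) were low in liver. Between tissues these levels are set side by side, without a test, because the tables of cortex and liver were normalized apart.

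**Figure D1:**
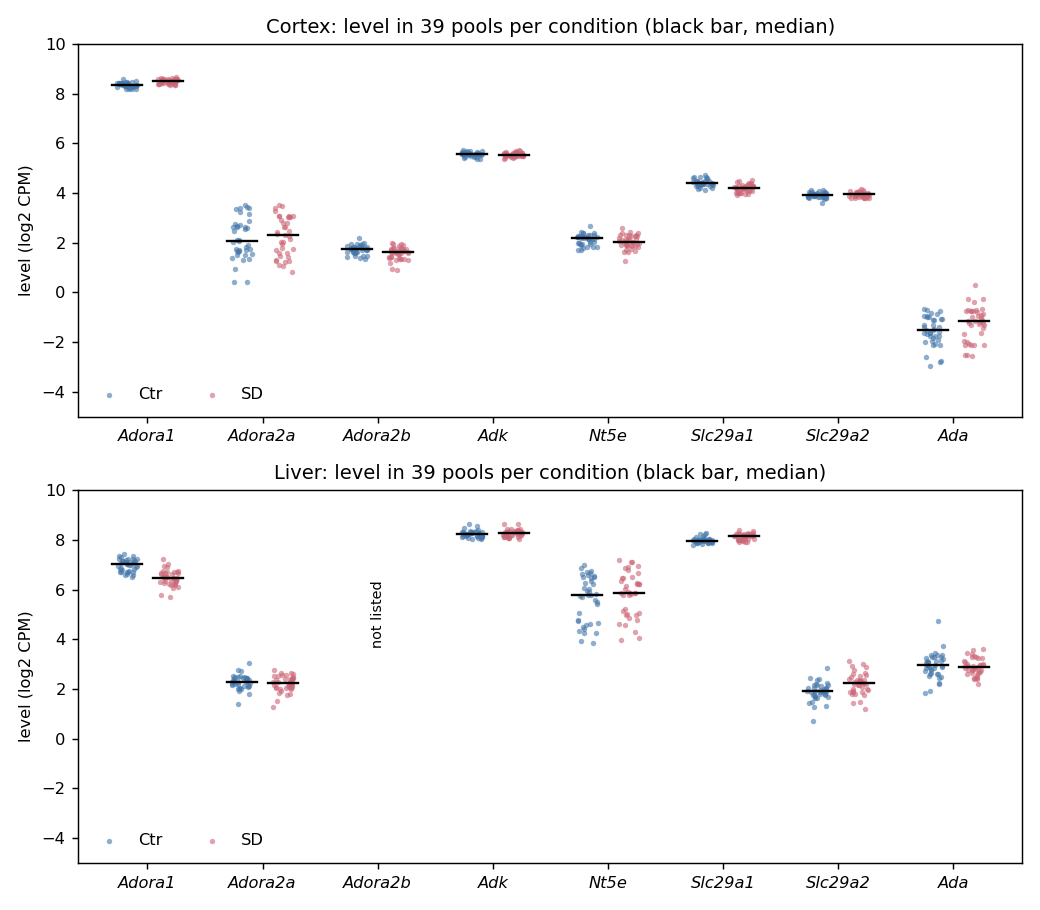
Level of the 8 genes (log2 CPM, vertical axis) in cortex (top) and liver (bottom), with a point for each of the 39 Ctr (blue) and 39 SD (red) pools and a black bar at the median. The points of Adora2a and Ada in cortex and of Nt5e in liver spread over more than 2 log2 units in both conditions. Those of Adk and Slc29a1 in either tissue stay within 1.

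The first question was whether 6 h of sleep deprivation changed the level of these genes. In cortex, Adora1 rose and Adora2b and Slc29a1 fell, 3 of 8 members called at a limma adjusted p under 0.05, whereas 68.4% of all genes listed in cortex were called. In liver, Adora1 fell and Slc29a1 and Slc29a2 rose, 3 of 7, with 44.2% of all genes called. The share of members called was therefore not above that of all genes in cortex and close to it in liver. These fits did not pair Ctr and SD by line. With the line as a block, Nt5e in liver also passed (limma adjusted p of 3.36e-04), in a fit that called 53.9% of all liver genes. Adora1 and Slc29a1 passed the test in both tissues with opposite signs, and Adk passed it in neither. With RNA from whole tissue, fewer cells of a type and less RNA per cell cannot be told apart.

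**Figure D2:**
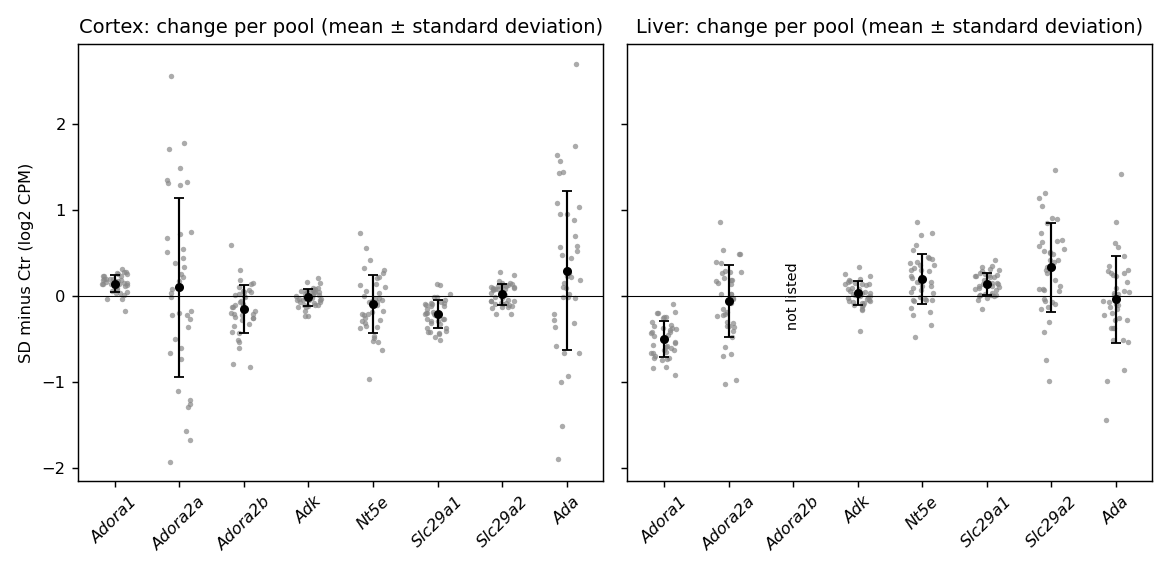
Change with sleep deprivation (SD minus Ctr, log2 CPM, vertical axis) of each gene in cortex (left) and liver (right), with a grey point per pool and the mean ± standard deviation over 39 pools in black. All 39 points of Adora1 in liver lie below 0, and the points of Adora2a and Ada in cortex spread over more than 4 log2 units.

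Adora1 encodes the A1 receptor, through which adenosine dampens neuronal firing and transmitter release. In Ctr cortex its level ran from 8.19 (BXD89) over a median of 8.36 to 8.61 log2 CPM (BXD56), and in SD cortex from 8.35 (BXD100) over 8.49 to 8.69 (BXD65a). The ranges overlapped, but 38 of the 39 SD pools lay above the Ctr median and 4 above every Ctr pool. The change was 0.14 on the log2 scale (SE 0.021), 1.10-fold, with a limma adjusted p of 7.19e-09, and it was positive in 36 of 39 pools. The exceptions were BXD56 (-0.18), B6-1 (-0.043) and BXD64 (-0.040), and the Ctr cortex library of BXD56 is one of those that stood apart. Without BXD56 and BXD90 the change was 0.15.

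In liver, Adora1 moved the other way and by more. Ctr pools ran from 6.51 (B6-1) over a median of 7.02 to 7.44 log2 CPM (BXD81), and SD pools from 5.70 (BXD55) over 6.48 to 7.24 (BXD81). The ranges overlapped, with 21 of 39 SD pools below every Ctr pool. Each of the 39 pools fell, from -0.091 in BXD50 to -0.92 in BXD55. The mean change was -0.50 (SE 0.062), or 0.706-fold, with a limma adjusted p of 9.62e-11, on 741 reads per library on average. In absolute size it ranked 1067 among the changes of the 14107 genes in liver, and the rise in cortex ranked 6808 among 14896.

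Slc29a1 encodes ENT1, a transporter that carries adenosine down its gradient in either direction. In Ctr cortex it ran from 4.12 (B6-2) over a median of 4.39 to 4.74 log2 CPM (BXD71), and in SD cortex from 3.93 (B6-1) over 4.21 to 4.53 (BXD71). The ranges overlapped, and 14 of the 39 SD pools lay below every Ctr pool. It fell by 0.21 on the log2 scale (SE 0.033), 0.862-fold, with a limma adjusted p of 2.36e-08, and the change was negative in 36 of 39 pools. The largest fall was in BXD51 (-0.52), and the largest positive change was in BXD98 (0.13).

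In liver, where Slc29a1 was among the upper genes of the table, Ctr pools ran from 7.79 (BXD81) over 7.97 to 8.29 log2 CPM (BXD50) and SD pools from 7.90 (BXD98) over 8.15 to 8.40 (BXD50). The ranges overlapped, with 3 SD pools above every Ctr pool. The change was 0.14 (SE 0.026), 1.10-fold, with a limma adjusted p of 8.76e-06, and 34 of 39 pools rose. The highest change, 0.41, was that of BXD70, whose SD liver library stood apart and was the shallowest in liver. Without BXD70 the change was 0.13, and with the library total as a covariate it was also 0.13, on the same side of the threshold.

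**Figure D3:**
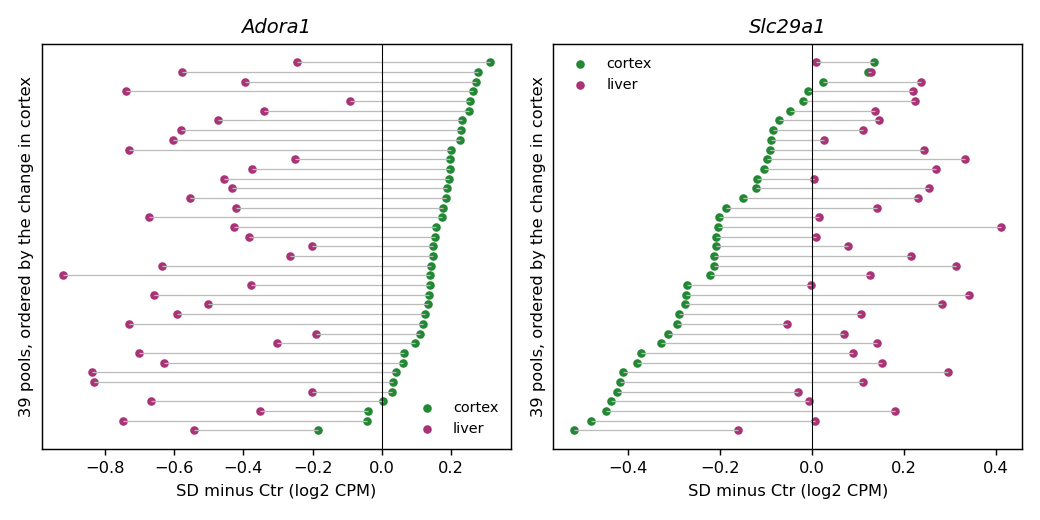
Change with sleep deprivation (SD minus Ctr, log2 CPM, horizontal axis) of Adora1 (left) and Slc29a1 (right) in cortex (green) and liver (purple), with a row for each of the 39 pools, ordered by the change in cortex, and a grey line joining the tissues of a pool. The liver point lies left of the cortex point in 39 of 39 pools for Adora1 and right of it in 38 of 39 for Slc29a1.

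Because each line gave both tissues, the difference between the tissues was tested pool by pool, over the 12695 genes listed in both. Of the 7 members listed in both, 4 differed, whereas 57.6% of all genes tested did. The liver change of Adora1 was lower than its cortex change by -0.64 (SE 0.032, limma adjusted p of 7.15e-21), in 39 of 39 pools. For Slc29a1 the liver change exceeded the cortex change by 0.35 (SE 0.028), in 38 of 39 pools. Slc29a2 differed by 0.31 (SE 0.083, limma adjusted p of 0.00131) and Nt5e by 0.29 (SE 0.064, limma adjusted p of 1.66e-04), each with the higher change in liver in 30 of 39 pools. Without the pairing of tissues by line, Nt5e did not pass (limma adjusted p of 0.268). Adora2a (-0.16), Adk (0.046) and Ada (-0.33, limma adjusted p of 0.0673) did not pass the test, although Ada did so once the 5 pools with libraries that stood apart were left out (-0.40, limma adjusted p of 0.0320).

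Slc29a2 encodes ENT2, a second equilibrative transporter of nucleosides and nucleobases. In cortex its levels were narrow, 3.61 to 4.12 log2 CPM in Ctr (median 3.93) and 3.79 to 4.18 in SD (median 3.95), and the change of 0.018 (SE 0.023) did not pass the test. In liver it was low, with 28.4 reads per library on average. Ctr pools ran from 0.69 (B6-1, 10 reads) over 1.91 to 2.84 log2 CPM (BXD73), and SD pools from 1.18 (BXD71) over 2.24 to 3.11 (BXD73b). Although the ranges overlapped widely, 30 of the 39 SD pools lay above the Ctr median. The change in liver was 0.33 (SE 0.091), 1.26-fold, with a limma adjusted p of 0.00171, positive in 29 of 39 pools.

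Adora2b encodes a receptor that needs higher adenosine levels than the other two. In cortex it ran from 1.34 (BXD81) over 1.76 to 2.20 log2 CPM (BXD90) in Ctr and from 0.91 (D2-2) over 1.62 to 1.99 (BXD98) in SD. The ranges overlapped, with 6 SD pools below every Ctr pool and 31 below the Ctr median. It fell by 0.15 (SE 0.050), 0.900-fold, with a limma adjusted p of 0.00492, in 27 of 39 pools, on 71.9 reads per library. Under quantile normalization the change was -0.080 and missed the threshold (limma adjusted p of 0.138).

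Adora2a encodes the receptor that caffeine blocks to promote wakefulness, and its levels in cortex had the largest standard deviation of the members (0.81 log2 units in Ctr and 0.78 in SD). Ctr pools ran from 0.42 (D2-2, 25 reads) over 2.08 to 3.54 log2 CPM (BD-F1), and SD pools from 0.82 (BXD67) over 2.31 to 3.52 (BXD55). The groups overlapped completely at the top and nearly so at the bottom, with no SD pool outside the Ctr range. The mean change of 0.098 (SE 0.18) was far within the spread between pools (standard deviation 1.04), and 21 pools rose and 18 fell. BXD55 rose by 2.56, from 48 to 226 reads, while in BXD43 the change was -1.93, from 226 to 70 reads. In the repeat pools of the parental strains, which share a genotype, the Adora2a levels of a condition lay 1.47 log2 units apart in the median and up to 1.89.

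Over the 33 lines, the genes with the pattern most like that of Adora2a in cortex were Syndig1l (Pearson r of 0.90), Drd2 (0.88) and Sh3rf2 (0.87). Syndig1l and Drd2, the D2 dopamine receptor, belong to a list of 14 markers of striatal medium spiny neurons, 12 of them listed in cortex. The mean centred level of those 12 markers correlated with Adora2a with r of 0.93 over the 39 Ctr libraries and 0.97 over the 39 SD libraries, and the changes of the 39 pools did so with r of 0.95. These points share library and depth, so they are given as a description. The summed level of the markers ran from 8.26 over 8.71 to 9.27 log2 CPM in Ctr and from 8.65 over 8.94 to 9.52 in SD. Of the 12, 5 rose and 1 fell (Gpr6, -0.61), a share called that is below the 68.4% of all cortex genes. Among the markers that rose were Pde10a (0.51), Tac1 (0.32), Rgs9 (0.29) and Rasd2 (0.27), while Drd2 (0.26), Penk (0.15) and Drd1a (0.080) did not pass the test. With the marker level as a covariate, the Adora2a change turned to -0.19 (limma adjusted p of 0.00288), and that of Nt5e became -0.14 (limma adjusted p of 0.0120), which took the count of members called from 3 to 5. Adora1, Adora2b and Slc29a1 kept their direction and call. The covariate itself moved with the condition, and whether it stands for the dissection or for a response of these markers was not tested.

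In liver, Adora2a was low (31.7 reads per library) and held a steadier level, 1.39 to 3.03 log2 CPM in Ctr (median 2.29) and 1.29 to 2.76 in SD (median 2.25). The change of -0.062 (SE 0.070) did not pass the test.

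**Figure D4:**
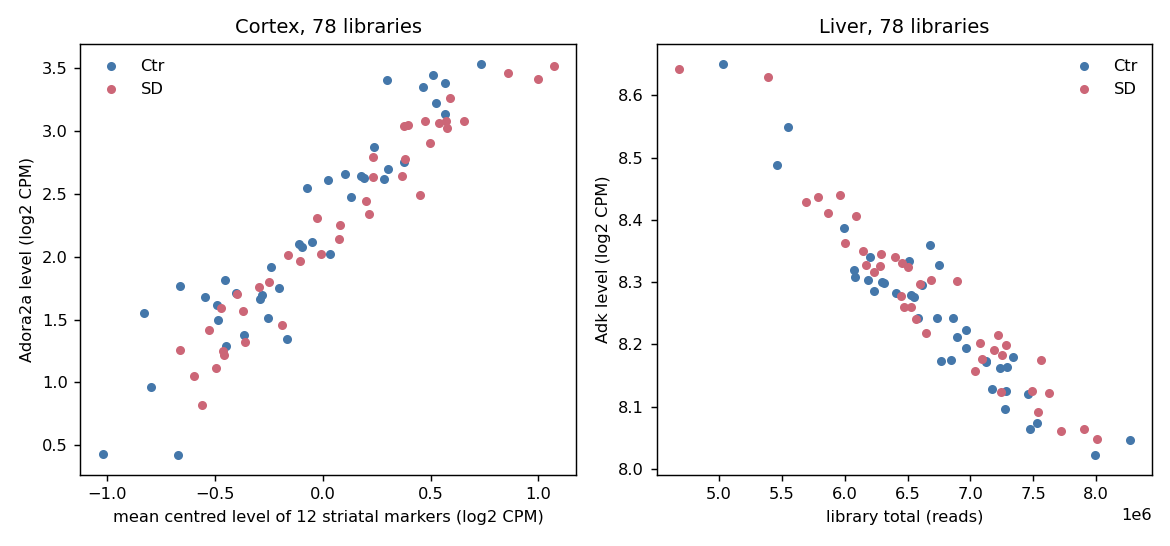
Left, Adora2a in cortex (log2 CPM, vertical axis) against the mean centred level of 12 striatal markers (log2 CPM, horizontal axis), and right, Adk in liver (log2 CPM) against the library total (reads), with 39 Ctr (blue) and 39 SD (red) libraries each. Adora2a climbs with the markers in both conditions (r of 0.93 and 0.97), and Adk declines with the total (r of -0.96).

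Adk encodes adenosine kinase, the main route of adenosine clearance in brain and abundant in liver. In cortex it was nearly constant, at 5.39 to 5.75 log2 CPM in Ctr (median 5.57) and 5.35 to 5.72 in SD (median 5.55), with a change of -0.018 (SE 0.019). In liver it ran from 8.02 (BXD79) over 8.24 to 8.65 (DB-F1) in Ctr and from 8.05 (BXD79) over 8.28 to 8.64 (BXD70) in SD, with a change of 0.028 (SE 0.030). Neither change passed the test, and in each tissue the groups overlapped nearly completely.

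The liver values of Adk tracked depth. Its reads stayed between 1858 and 2262 in Ctr, although the library totals ran from 5034166 to 8269401. Over the 78 liver libraries the log2 read count of Adk rose by 0.30 for each log2 unit of library total, where proportional counting gives 1, and its log2 CPM correlated with the total with r of -0.96. Only 1.04% of the liver genes had a lower r. For Slc29a1 in liver the slope was 0.54 and r was -0.68, with 9.11% of genes lower. How far such low slopes limit the liver levels and changes of Adk and Slc29a1 was not tested. In cortex the slopes were 0.95 for Adk and 0.73 for Slc29a1. The genes most like Adk in liver, Ddt (0.98), Hibadh (0.98) and Gstz1 (0.98), had an r with the total of -0.96, -0.96 and -0.97, and those most like Slc29a1, Aup1 (0.91), Oxa1l (0.90) and Agxt (0.90), had -0.86, -0.67 and -0.87. The highest value of any gene was 11.3 log2 CPM in liver, against 13.2 in cortex.

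Nt5e encodes CD73, the ecto-enzyme that turns AMP into adenosine at the cell surface. In cortex it was low, with 98.2 reads per library. Ctr pools ran from 1.71 (D2-1) over 2.19 to 2.69 log2 CPM (BXD56) and SD pools from 1.27 (BD-F1) over 2.05 to 2.58 (BXD100), with 5 SD pools below every Ctr pool. The change of -0.10 (SE 0.055, limma adjusted p of 0.0969) did not pass the test, and 26 of 39 pools were lower in SD. Markers of meningeal fibroblasts, cells that line the cortex surface, were lower in SD in 5 of 5 (median -0.25), where 68.4% of all cortex genes were called. Their summed level ran from 5.61 over 6.07 to 6.67 log2 CPM in Ctr and from 5.39 over 5.81 to 6.18 in SD. Their part in the values of Nt5e and Adora2b was not tested.

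In liver, Nt5e ran from 3.87 (BXD55, 77 reads) over 5.80 to 6.996 log2 CPM (BXD101, 958 reads) in Ctr and from 3.98 (BXD55) over 5.87 to 7.20 (BXD71) in SD. The groups overlapped almost completely because the lines differed far more than the conditions. The change of 0.19 (SE 0.20) did not pass the test without a block (limma adjusted p of 0.480). In a fit blocked on the line as replicate, the SE was 0.044 and the limma adjusted p 3.36e-04, in a fit that called 53.9% of all liver genes (76.3% in cortex). In the pools, 28 rose and 11 fell, with the largest rise in BXD83 (0.86, from 297 to 582 reads).

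Line differences were tested in the 33 BXD/RwwJ lines, with the SD and Ctr libraries of a line as its repeats, so that the residual holds both the spread between pools and any line-specific response. In liver, 4 of 7 members differed between lines, namely Nt5e, Adora1, Adk and Slc29a1, whereas 59.0% of all liver genes did. In cortex, 2 of 8 differed, Adora1 and Slc29a1, against 50.4% of all genes. Nt5e in liver had an F of 40.2 (limma adjusted p of 1.09e-18), Adora1 an F of 5.79 (limma adjusted p of 3.70e-06), Adk 4.25 and Slc29a1 2.53. With the library total as a covariate, Slc29a1 in liver no longer passed (F of 1.50, limma adjusted p of 0.181), Adk fell to an F of 2.22 (limma adjusted p of 0.0286), and Nt5e and Adora1 stayed at 40.4 and 5.05. In cortex the F was 2.64 for Adora1 (limma adjusted p of 0.00638) and 2.14 for Slc29a1 (limma adjusted p of 0.0269), and that of Adora1 was 4.16 without BXD56 and BXD90.

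The line means of Nt5e in liver, over the Ctr and SD libraries of a line, ran from 3.92 (BXD55) over a median of 5.85 to 7.05 log2 CPM (BXD101), an 8.76-fold range. The Ctr and SD levels of the lines correlated with r of 0.95, although their libraries came from different mice. The B6 libraries lay at 4.58 and 4.73 in Ctr and 4.96 and 5.04 in SD, and the D2 libraries at 6.61 and 6.36 in Ctr and 6.97 and 6.52 in SD. The parental strains did not overlap, and the mean of the 4 D2 libraries was 3.45 times that of the 4 B6 libraries. The F1 libraries, from 5.70 to 6.06, lay between the parents. Of the 33 lines, 26 had a mean within the parental values, 5 lay below the lowest B6 library and 2 above the highest D2 library. Repeat pools of a parental strain differed by 0.20 in the median and by at most 0.45.

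The levels of Nt5e in the lines had no wide break. The largest gap, from 5.10 to 5.65 log2 CPM, took 17.5% of the range and separated 11 lines from 22.

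**Figure D5:**
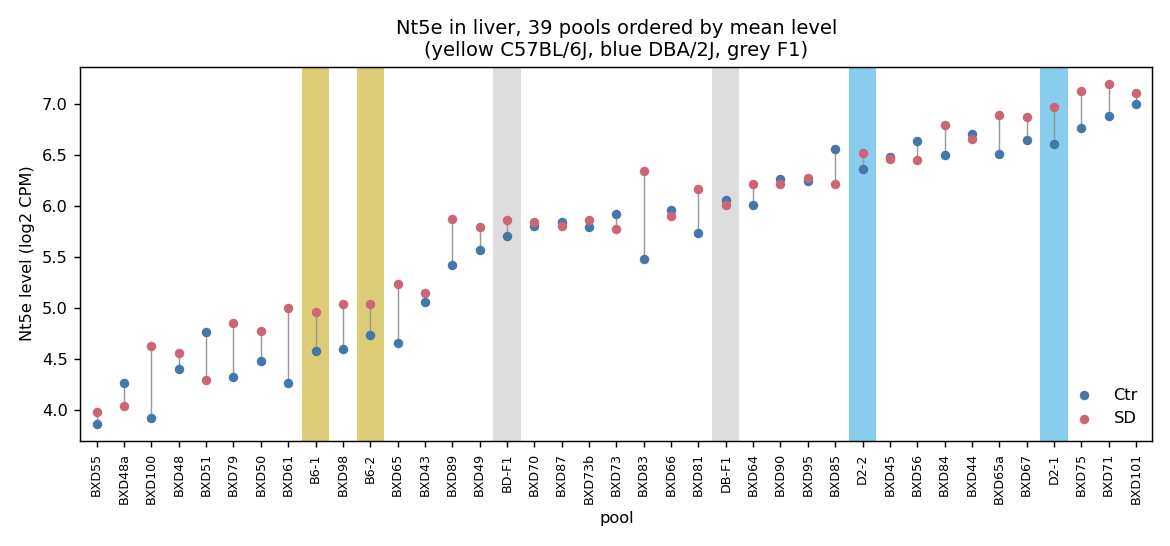
Nt5e level in liver (log2 CPM, vertical axis) in the 39 pools, ordered by mean level along the horizontal axis, with Ctr in blue and SD in red joined by a line, and the B6 pools shaded yellow, D2 blue and F1 grey. The B6 pools sit in the lower part of the order, the D2 pools in its upper part and the F1 pools between them, over a range of line means from 3.92 to 7.05.

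The 3 genes whose liver levels over the lines were most like those of Nt5e lay on its own chromosome. They were Mrap2 (r of 0.80), an accessory protein of melanocortin receptors, at chr9:87039140-87078880, Adamts7 (0.74), a secreted metalloprotease, at chr9:90057816-90102909, and Tpbg (0.73), a membrane glycoprotein, at chr9:85735987-85740662. Their distances from Nt5e were 1.14, 1.79 and 2.48 Mb. Of the genes most like the other members in either tissue, 1 each lay on the chromosome of its member, Mmgt2 for Adora2b in cortex (0.38 Mb) and Rbm4b for Slc29a2 in liver (0.26 Mb). Mrap2 was at the value of 0 reads in the B6 libraries (-2.77 to -2.75 log2 CPM), at 5.24 to 6.33 in the D2 libraries and at 4.29 to 4.81 in the F1 libraries. Over Ctr and SD together, Adamts7 ran from 3.76 to 4.98 in the B6 libraries and from 4.61 to 6.06 in the D2 libraries, with overlap. Tpbg was close to the value of 0 reads throughout, with line means of at most 0.12 log2 CPM, so its r rests on few reads. The genotypes of the lines at these positions were not used here.

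Adora1 in liver also differed between the parental strains. In Ctr the B6 libraries lay at 6.51 and 6.70 log2 CPM, the F1 libraries at 6.81 and 6.89 and the D2 libraries at 7.12 and 7.24. In SD the B6 libraries lay at 5.76 and 6.19, the F1 libraries at 6.21 and 6.32 and the D2 libraries at 6.68 and 6.75. The order B6, F1, D2 thus held without overlap in each condition, and both strains fell with sleep deprivation. In SD the upper B6 library (6.19) and the lower F1 library (6.21) were closer than repeat pools often were. The mean of the D2 libraries was 0.66 log2 units above that of the B6 libraries. Repeat pools of a parental strain lay 0.15 apart in the median and at most 0.43. The line means ran from 6.16 (BXD55) over 6.73 to 7.34 (BXD81), a 2.26-fold range, and the Ctr and SD levels of the lines correlated with r of 0.70. The likest genes over the lines were Limk2 (0.73), Sorcs2 (0.67) and Sybu (0.64), on other chromosomes than Adora1.

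In cortex the line means of Adora1 spanned a 1.22-fold range, from 8.27 (BXD100) to 8.56 log2 CPM (BXD65a), and Ctr and SD levels correlated with r of 0.43. The likest genes were Rasgrp1 (0.71), Ptprj (0.70) and Tollip (0.66). For Slc29a1 in cortex the line means ran from 4.16 (BXD101) to 4.63 (BXD71). In Ctr the B6 libraries lay at 4.36 and 4.12 and the D2 libraries at 4.48 and 4.64. In SD the B6 libraries lay at 3.93 and 4.00 and the D2 libraries at 4.35 and 4.23. The strains did not overlap within a condition, while repeat pools of a strain lay 0.14 apart in the median and at most 0.23. Genes among the likest of Slc29a1 were Wbp11 (0.63) and Adck3 (0.63).

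The remaining members had likest genes with a lower r. In cortex these were Wdr77 (0.62), Mmgt2 (0.61) and Gtpbp6 (0.60) for Adora2b, Tmem55a (0.68), Hps3 (0.67) and A430035B10Rik (0.63) for Adk, Itga5 (0.65), Cd4 (0.56) and Psmd11 (0.56) for Nt5e, Sympk (0.68), Tbrg4 (0.66) and Aars2 (0.64) for Slc29a2, and Smim3 (0.71), Nde1 (0.62) and Plekhf1 (0.62) for Ada. In liver they were Lhfp (0.68), Magi2 (0.66) and Tnfsf13b (0.64) for Adora2a, Agap3 (0.61), Fam73a (0.61) and Rbm4b (0.60) for Slc29a2, and Snx20 (0.70), A930011G23Rik (0.65) and Ifitm6 (0.64) for Ada. Each is the top of a search over all genes of a tissue with 33 lines, and is given as a description.

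Ada encodes adenosine deaminase, an enzyme found in lymphocytes among other cells. In cortex it was the lowest member, with 8.59 reads per library, from 2 reads in the Ctr library of BXD79 to 27 in the SD library of BXD95. Ctr pools ran from -2.96 (BXD79) over -1.51 to -0.65 log2 CPM (BXD56), and SD pools from -2.55 (BXD56) over -1.17 to 0.31 (BXD95). The ranges overlapped, with 4 SD pools above every Ctr pool. The change of 0.29 (SE 0.14) missed the threshold (limma adjusted p of 0.0665), with 25 pools up and 14 down, and it lay between 0.21 and 0.44 over the alternatives, 4 of which passed. In BXD79 the reads went from 2 to 19 and in BXD56 from 14 to 3, so single pools rest on few reads.

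In liver, Ada ran from 1.82 (BXD100) over 2.95 to 4.72 log2 CPM (BD-F1) in Ctr and from 2.22 (BXD48a) over 2.87 to 3.63 (BXD65a) in SD. The Ctr library of BD-F1, with 182 reads, stood apart from the next pool (3.72). The change of -0.042 (SE 0.097) did not pass the test. Beside it, 5 of 6 B cell markers fell in liver, among them Cd79a (-1.82) and Cd79b (-1.11), where 44.2% of all liver genes were called. The summed level of the B cell markers ran from 2.95 over 3.91 to 4.87 log2 CPM in Ctr and from 1.46 over 2.61 to 3.87 in SD. None of the 5 T cell markers passed the test (median -0.18). The part of B and T cells in the values of Ada and Nt5e in liver was not tested.

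Whether a line with a high level in cortex also had a high level in liver was asked for the 7 members listed in both tissues, over the 33 lines in Ctr. Pearson's r ran from -0.16 (Nt5e) to 0.18 (Adk), with two-sided permutation p of 0.377 and 0.322, and Spearman's rho of these members was -0.25 (p of 0.165) and 0.13 (p of 0.471). All 7 Benjamini-Hochberg adjusted p were at least 0.670 for r and 0.703 for rho. Without the 2 lines farthest from the median in cortex, r was -0.25 for Nt5e and 0.17 for Adk. No relation was detected, which leaves room for weak ones at this number of lines.

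The other genes of the pathway were taken from 4 lists with 70 genes in all. In cortex 58 were listed, and 17 rose and 25 fell, so 72.4% were called, against 68.4% of all genes. In liver 60 were listed, and 11 rose and 14 fell, or 41.7%, against 44.2%. The median change of the 58 genes in cortex was 7.48e-04 and that of the 60 in liver -0.013, near those of all genes (-0.00973 and -0.00152).

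Among genes of nucleotide release and breakdown outside the cell, 5 of 15 rose and 5 fell in cortex, and 5 of 16 rose and 6 fell in liver. The share of all genes called, in either direction, was 68.4% in cortex and 44.2% in liver. The largest falls in cortex were those of Abcc6 (-0.52, limma adjusted p of 4.65e-06), a transporter involved in ATP release, and Alpl (-0.43, limma adjusted p of 3.54e-10), a phosphatase that also hydrolyses AMP. In liver, Gja1, the gap junction protein connexin 43, rose by 0.33 (limma adjusted p of 1.63e-06). In the list of AMP, adenosine and purine metabolism inside the cell, 10 of 26 rose and 12 fell in cortex, and 5 of 26 rose and 5 fell in liver. Xdh, the xanthine oxidoreductase that forms uric acid in purine breakdown, rose by 1.02 in cortex (limma adjusted p of 9.61e-16), in 38 of 39 pools, the largest rise of the lists there, whereas in liver its change was -0.028. Nt5c1a, a cytosolic enzyme that makes adenosine from AMP, rose by 0.30 in cortex (limma adjusted p of 4.72e-05). In liver, Ahcyl2, a relative of the enzyme that splits S-adenosylhomocysteine into adenosine and homocysteine, rose by 0.46, and Ak7, an adenylate kinase, fell by 0.65 on 17.9 reads per library.

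Of the P2 receptors, which bind extracellular nucleotides rather than adenosine, 2 of 12 rose and 7 fell in cortex, and 1 of 14 rose and 3 fell in liver. Beside the counts of this list and the next, 68.4% of all genes were called in cortex and 44.2% in liver. P2ry1, a receptor for ADP, rose in both, by 0.32 in cortex (limma adjusted p of 7.81e-05) and by 0.46 in liver (limma adjusted p of 5.91e-06). P2rx1 in cortex (-0.45), P2rx3 in liver (-0.60) and P2ry10 in liver (-0.62) fell, all on fewer than 20 reads per library. Among the other nucleoside transporters and binding partners, 1 of 5 fell and none rose in cortex, and none of 4 passed the test in liver. The gene that fell was Dpp4 (-0.24), the membrane peptidase that binds adenosine deaminase.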

How the data were processed

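RNA of whole cortex or liver was sequenced from pools of mice. Per the labels and the study's methods, the authors aligned reads to mm9 with STAR and counted them per RefSeq gene with HTSeq by strand. They left out low genes and deposited log2 CPM scaled with TMM factors, with the values of Ctr and SD given apart. Over the 39 pools, the mean log2 TMM factor was 0.0116 in Ctr and -0.0120 in SD cortex. In liver it was 0.00467 in Ctr and -0.00474 in SD, so the factors were not centred within a condition. The versions of STAR, HTSeq and edgeR are not given in the sources used here. Whole reads could be recovered from these values for 100% of entries (tolerance 0.02 read). Depth was 18995492 to 28998853 reads in cortex and 4681101 to 8269401 in liver, and counting error is largest for low genes.

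The log2 CPM values were used as deposited by the authors. SD and Ctr were compared with limma (3.58.1, R 4.3.3, empirical Bayes with trend) over all genes of a tissue, with Benjamini-Hochberg adjustment and a threshold of 0.05. The difference between tissues was tested on the change of each pool, and line differences with a moderated F test over 33 lines. Relations between tissues used 100000 permutations. The SD comparison was fitted without pairing by line, so its p-values measure the change against the spread between pools, line differences included. Those of the tissue test rest on the spread of the paired differences, and those of the F test on the residual within lines. The scripts were tested on simulated data. The line of a pool links Ctr and SD by genotype: deviations of the same line correlated in 39 of 39 pairs in each tissue (r of 0.30 to 0.71 in cortex and 0.17 to 0.65 in liver). The best match was the own line in 37 of 39 pairs in each tissue.

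All members are named, with the 3 called pathway genes of largest rise and of largest fall in each tissue, the 3 genes most correlated with each member, and markers of lists that moved with a member. Some genes that this rule takes in are not reported here. Members and lists were chosen with earlier results of these data known. Alternatives covered the block, normalization, filter, prior count, covariates and libraries left out. Those with library total, and those leaving out BXD70 or the libraries that stood apart, were chosen after seeing the data. The 4 BXD/TyJ lines were kept out of the comparisons.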

Additional observations from a re-analysis of the deposited data

Results flagged for a closer look

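Differences between liver and cortex in the change with sleep deprivation passed the test for 4 members, with the liver change minus the cortex change at -0.64 for Adora1, 0.29 for Nt5e, 0.35 for Slc29a1 and 0.31 for Slc29a2 (log2 scale, 39 pools). Without pairing by line, that of Nt5e did not pass (limma adjusted p of 0.268). For Adora1 and Slc29a1 the changes of the tissues had opposite signs and each passed its own test.

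Among the 4 BXD/TyJ lines, the SD liver library of BXD05TyJ stood apart from the other 3 in a pair of genes. Adora2a was at 1.70 log2 CPM there, against 2.30 to 2.35 in the others, and Nt5e was at 4.91, against 4.57 to 4.60. Chance flags about 1 in 20 such groups, and 30 were examined.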

How the results depend on the processing

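Of 499 values recomputed under the alternatives, 480 were kept. For changes and correlations this means the same direction and side of the threshold, and for F tests the same side. Counts of called genes were also among the 499, and were kept when of similar size. Adora1 and Slc29a1 kept direction and side of the threshold in cortex and liver, and so did Slc29a2 in liver, under each alternative to the SD comparison (16 per gene). With the line as a replicate block, Nt5e in liver passed (0.19, limma adjusted p of 3.36e-04), as it did with voom on recovered reads and the block (0.17) and with library total and the block (0.20), and the block alone changed no other call of a member. Under quantile normalization, Adora2b in cortex was at -0.080 and did not pass, Ada in cortex was at 0.44 and passed, and the uncalled liver changes of Adora2a and Ada turned to 0.013 and 0.015. Ada in cortex also passed with voom and the block (0.35), with all 43 pools (0.34) and without BXD56 and BXD90 (0.34), and in liver it was at 0.0087 with all 43 pools. With the striatal marker level as a covariate, Adora2a in cortex was at -0.19 and Nt5e at -0.14, both past the threshold, and 5 members were called. Slc29a1 did not differ between lines in liver with library total as a covariate (F of 1.50). The tissue difference of Nt5e (0.29) did not pass without pairing, and that of Ada was -0.40, past the threshold, without the 5 pools that stood apart. In SD libraries the relation between tissues turned to 0.13 for Adora2a and -0.28 for Slc29a2, neither past the threshold. The causes were not tested. Depth limits Ada in cortex and Slc29a2 and Adora2a in liver most.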

Other observations

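The 4 BXD/TyJ lines, of an older BXD panel, had no part in the comparisons of the 39 pools. In liver Adora1 changed by -0.86 to -0.35 on the log2 scale and was lower in SD in 4 of 4 lines, and in cortex it changed by 0.060 to 0.31 and was higher in 4 of 4. Slc29a1 changed by -0.40 to -0.19 in cortex, lower in 4 of 4, and by -0.012 to 0.43 in liver, higher in 3 of 4. Slc29a2 in liver was higher in 2 of 4 lines, and Adora2b in cortex was higher in 3 of 4. Nt5e in liver lay between 4.05 and 4.69 log2 CPM in Ctr and between 4.57 and 4.91 in SD. Ada in liver was higher in SD in 4 of 4, by 0.16 to 0.75.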
